A study of Mus musculus with 12 samples.

Results

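Myc, its dimerization partner Max and the Mxd family form a small network of basic helix-loop-helix leucine zipper proteins. Myc and Mycn pair with Max and activate genes at E-boxes, whereas Mxd1, Mxd3, Mxd4, Mxi1 and Mnt pair with Max at the same sites and bring in Sin3 or NCoR corepressors. In many lineages Myc is expressed in dividing progenitors and Mxd proteins appear as the cells stop dividing and mature. Mga is a large Max partner found in a polycomb-type repressive complex, and Mlx pairs with Mxd1, Mxd4 and Mnt as well as with the Mlxip factors.

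The 10 network genes were taken by symbol from the deposited table of 23309 genes, and all 10 were among the 11516 genes with at least 1 FPKM (fragments per kilobase of transcript, scaled to library size) in at least 2 of the 12 libraries. The cells were mouse bone marrow CD117+ progenitors immortalized with a retrovirus that expresses HoxB8 fused to the estrogen receptor (ER-HoxB8), so both genotypes and all times carried this fusion. E2 (estradiol) holds such cells immature, and its removal in the presence of IL-3 lets them mature. Wild-type cells were compared with HMGN1-OE cells, from mice carrying a human HMGN1 transgene, at 0, 36, and 96 h after E2 withdrawal, with 2 libraries in each of 6 groups. The mouse gene table does not list the human transgene, so the genotype labels were not checked with it.

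RNA came from a fixed number of cells with ERCC spike-in RNAs, and the deposited FPKM values were scaled to the spike-ins. Library medians (log2(FPKM + 1) of the tested genes) were 3.91 to 4.97 at 0 and 36 h and 2.02 to 3.06 at 96 h, so that most genes were lower per cell at 96 h. Changes were therefore computed on 2 scales, as deposited and after centring every library on its own median, and each value is given with its scale. The second wild-type library at 96 h had the lowest summed FPKM, 228955, against up to 1442573 in the others. Summed FPKM of 8 immature progenitor markers was 5676 to 16392 at 0 h and 124 to 2336 at 96 h. That of 11 mature neutrophil markers was 1176 to 2956 at 0 h and 67146 to 173011 at 96 h. Members did not all follow, as Mmp8 went from 55.6 to 204 FPKM at 0 h to 12.5 to 60.4 FPKM at 96 h. S100a9 ran from 0.0511 to 73461 FPKM at 96 h. As deposited, 9 neutrophil markers passed higher and 2 lower in wild-type cells (limma, 4.31% and 77.2% of all genes). In HMGN1-OE cells 10 passed higher and 1 lower (5.08% and 62.4%). For progenitor markers the counts were 0 and 8 in wild-type and 1 and 5 in HMGN1-OE cells. In the same libraries 4 eosinophil markers summed to 6.63 to 27.0 at 0 h and 205 to 2133 at 96 h, and the B and T cell markers, among them Cd79a, Ms4a1, Cd3e and Cd3g, stayed at or below 2.07 in sum. The 5 mast cell and basophil markers summed to 379 to 731 at 0 h, 769 to 2602 at 36 h and 103 to 433 at 96 h. The 6 macrophage and monocyte markers summed to 53.4 to 938 at 0 h, 169 to 2281 at 36 h and 352 to 1306 at 96 h, where Ly6c2 made up most of it. The part of these cell mixtures in the results was not tested. In bulk RNA, fewer cells of a type and less RNA per cell cannot be told apart.

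RefSeq promoters (GRCm38.p6, 250 bases before and 50 after the start) were at hand for 9 of the 10 genes. They are shown because network dimers bind the E-box CACGTG, a palindrome read the same on both strands. It occurred in 4 of the 9, against 7.15% of 32851 promoters in the table and 12.2% of 8530 tested genes with a promoter. The 4 windows of 30 bases below have the E-box in capitals. Their sites begin 3, 219, 123 and 40 bases before the start of Max, Mxd4, Mnt and Mlx, and that of Max crosses the start.
Max, chr12:76962234-76962263, minus strand: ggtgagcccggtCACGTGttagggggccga
Mxd4, chr5:34187912-34187941, minus strand: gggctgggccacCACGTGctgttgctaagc
Mnt, chr11:74830789-74830818, plus strand: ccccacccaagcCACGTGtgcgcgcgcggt
Mlx, chr11:101087238-101087267, plus strand: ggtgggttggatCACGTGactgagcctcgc
The letters CACGTG were not in the windows of Mycn, Mxd1, Mxd3, Mxi1 and Mga. The upstream part of the Mxd1 window, from 250 to 51 bases before the start, is printed because Mxd1 showed the largest rise of the network.
Mxd1, chr6:86669210-86669409, minus strand: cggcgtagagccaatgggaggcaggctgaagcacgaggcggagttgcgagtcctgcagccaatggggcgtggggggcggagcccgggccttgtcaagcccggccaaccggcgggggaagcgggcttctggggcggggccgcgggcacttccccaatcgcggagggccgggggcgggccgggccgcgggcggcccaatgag
A match is a description of letters and not of binding, and binding was not measured here.

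The activators dominated the progenitors. Myc, the network's main activator of growth and ribosome genes, was at 150 and 241 FPKM in the wild-type libraries and 226 and 122 FPKM in the HMGN1-OE libraries at 0 h. At 36 h it was at 238 and 301 FPKM in wild-type and 183 and 171 FPKM in HMGN1-OE cells. At 96 h it was at 15.2 and 3.90 FPKM in wild-type and 11.6 and 19.7 FPKM in HMGN1-OE cells, below every library of the earlier times. On the deposited scale Myc fell from 0 to 96 h by 4.42 on the log2 scale in wild-type cells (SE 0.56, limma, Benjamini-Hochberg adjusted p = 1.3e-13) and by 3.37 in HMGN1-OE cells (SE 0.56, adjusted p = 3.49e-08). With each library centred it fell by 2.58 (adjusted p = 2.05e-05) and 2.06 (adjusted p = 0.000103). Here and throughout, log2 changes are of log2(FPKM + 1), which understates changes of low genes as deposited. Centring then adds the same shift to every gene, so it can overstate a rise of a low gene.

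Mycn, the paralog best known from neural progenitors and also active in blood stem cells, was not a minor component. It was at 66.5 and 88.5 FPKM in wild-type and 76.2 and 54.7 FPKM in HMGN1-OE libraries at 0 h, 0.338 to 0.448 of the Myc value in the same library. At 36 h it was at 60.0 and 132 FPKM in wild-type and 55.7 and 50.9 FPKM in HMGN1-OE cells. By 96 h all 4 libraries listed it at 0.190 to 0.331 FPKM. That is 1.95 to 3.36 times the value at which the table lists most silent genes, so Mycn was near the floor and its ratio to Myc had dropped to 0.0168 to 0.0489. Mycn fell by 5.95 in wild-type cells (SE 0.51, adjusted p = 3.89e-29) and by 5.69 in HMGN1-OE cells (SE 0.51, adjusted p = 1.05e-26) on the deposited scale. On the centred scale the falls were 4.11 and 4.38 (SE 0.31 in both, adjusted p = 8.34e-06 and 1.34e-05).

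Mxd1, the Mxd family member known to be induced as granulocytes mature, moved the other way. It was at 3.00 and 5.88 FPKM in wild-type and 4.23 and 3.00 FPKM in HMGN1-OE libraries at 0 h, the lowest of the 10 genes by group mean in wild-type cells. At 36 h it was at 7.51 and 5.55 FPKM and at 3.88 and 3.22 FPKM in the same order. At 96 h it stood at 64.6 and 40.4 FPKM in wild-type and 51.4 and 42.9 FPKM in HMGN1-OE cells, the highest of the 10 genes by group mean, and no 96 h library overlapped an earlier one. The ratio of mean FPKM was 11.8 in wild-type cells and 13.0 in HMGN1-OE cells. Mxd1 rose by 3.31 in wild-type cells (SE 0.48, adjusted p = 1.13e-10) and by 3.39 in HMGN1-OE cells (SE 0.48, adjusted p = 6.69e-11) as deposited, while the median of all tested genes moved by -1.75 and -1.28. Centred, it rose by 5.16 and 4.70 (SE 0.23 in both, adjusted p = 3.2e-06 and 6.97e-06).

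**Figure D1:**
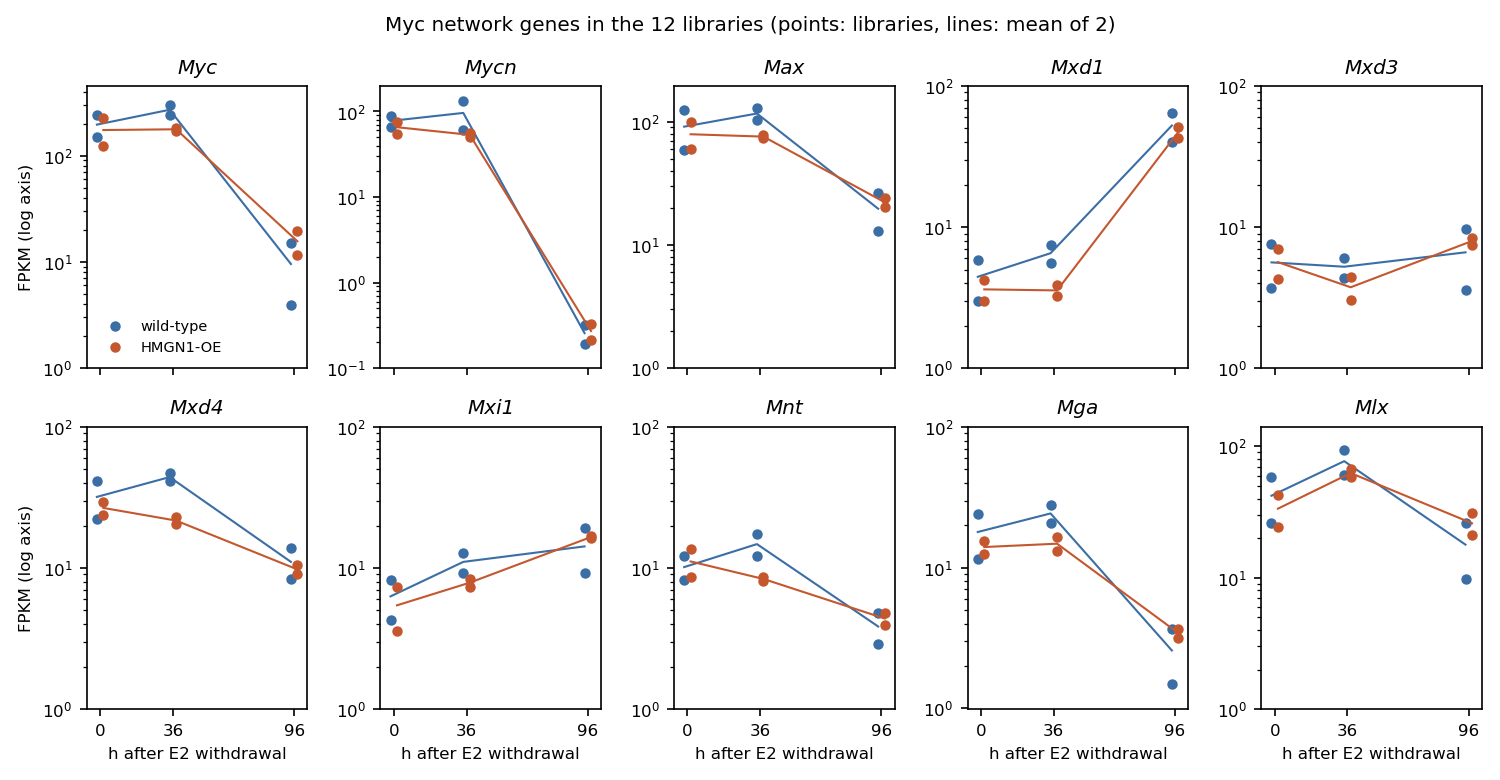
FPKM (log axis) of the 10 network genes against hours after E2 withdrawal, with 1 point per library and lines through the means of 2 libraries in wild-type (blue) and HMGN1-OE (orange) cells. Myc and Mycn at 96 h lie below all earlier libraries and Mxd1 at 40.4 to 64.6 FPKM lies above them, in both genotypes.

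Mxi1 (also called Mxd2), a Max-binding repressor, was the other family member that rose on both scales. It was at 4.31 and 8.28 FPKM in wild-type and 7.30 and 3.58 FPKM in HMGN1-OE libraries at 0 h, at 7.37 to 12.8 FPKM over the 4 libraries at 36 h, and at 19.3 and 9.16 FPKM in wild-type and 16.9 and 16.3 FPKM in HMGN1-OE libraries at 96 h. The groups at 0 and 96 h did not overlap. The deposited change was 1.03 in wild-type cells (SE 0.48, adjusted p = 0.0382) and 1.51 in HMGN1-OE cells (SE 0.48, adjusted p = 0.00372). The wild-type call did not hold in 9 of 20 fits on this scale (all settings tried, each left-out library included), with an adjusted p of up to 0.331, and the values without the first wild-type library at 0 h or at 96 h were 0.63 and 0.53. The HMGN1-OE call held in 18 of 20, with an adjusted p of up to 0.104. On the centred scale Mxi1 rose by 2.88 and 2.82 (SE 0.23, adjusted p = 9.73e-06 and 1.84e-05).

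Mxd3, a family member usually tied to S phase of dividing cells, did not pass per cell. It was at 3.68 to 7.56 FPKM over the 4 libraries at 0 h, 3.03 to 6.08 FPKM at 36 h and 3.55 to 9.69 FPKM at 96 h, and these ranges overlap. Its deposited change to 96 h was 0.14 in wild-type cells (95% interval -0.73 to 1.01, adjusted p = 0.767) and 0.46 in HMGN1-OE cells (-0.41 to 1.33, adjusted p = 0.344). Relative to the falling median it rose by 1.99 and 1.77 (adjusted p = 1.73e-05 and 4.9e-05).

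Mxd4, the family member with the highest level in progenitors, was at 22.2 and 41.6 FPKM in wild-type and 29.5 and 23.9 FPKM in HMGN1-OE libraries at 0 h. At 96 h it was at 13.8 and 8.34 FPKM and at 9.08 and 10.5 FPKM. Its deposited fall of 1.42 in wild-type cells (SE 0.52, adjusted p = 0.00839) and 1.36 in HMGN1-OE cells (adjusted p = 0.0156) was close to that of the median gene. Each call held in 17 of 20 fits on this scale (adjusted p up to 0.173 and 0.128). Centred, the wild-type change turned to a rise of 0.42 (SE 0.12, adjusted p = 0.0105) and the HMGN1-OE value was -0.04 (adjusted p = 0.758). Within the Mxd family, then, Mxd1 and Mxi1 rose on both scales and Mxd4 changed sign with the scale in wild-type cells.

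Max, required by both arms of the network, was at 58.8 and 123 FPKM in wild-type and 98.3 and 59.5 FPKM in HMGN1-OE libraries at 0 h and at 26.2 and 13.0 FPKM and 20.2 and 24.2 FPKM at 96 h. It fell by 2.14 (SE 0.55, adjusted p = 0.000215) and 1.75 (SE 0.55, adjusted p = 0.00367) as deposited, calls that held in 19 and 18 of 20 fits. Most of this matched the median gene, since the centred falls were 0.29 (SE 0.10, adjusted p = 0.0214) and 0.43 (SE 0.10, adjusted p = 0.00358), and the wild-type call was lost after quantile normalization (-0.13, adjusted p = 0.184). Mnt, a broadly expressed antagonist of Myc, was at 8.18 to 13.6 FPKM at 0 h and 2.91 to 4.81 FPKM at 96 h. It fell by 1.21 in wild-type cells (adjusted p = 0.0135) and 1.15 in HMGN1-OE cells (adjusted p = 0.0240) as deposited, calls that each held in 17 of 20 fits (adjusted p up to 0.183 and 0.233). On the centred scale it was 0.64 higher (adjusted p = 0.007) and 0.17 higher (adjusted p = 0.396).

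Mga, like Myc, Mycn and Max, fell on both scales. It went from 11.6 to 24.3 FPKM over the 4 libraries at 0 h to 1.48 to 3.69 FPKM at 96 h, with no overlap. Its deposited fall was 2.39 in wild-type cells (adjusted p = 2.59e-06) and 1.76 in HMGN1-OE cells (adjusted p = 0.000856), and its centred fall was 0.54 (SE 0.12, adjusted p = 0.00312) and 0.45 (SE 0.12, adjusted p = 0.00998). Mlx was at 24.3 to 58.1 FPKM at 0 h, 58.6 to 93.7 FPKM at 36 h and 9.84 to 30.9 FPKM at 96 h. Its deposited change was -1.23 in wild-type cells (adjusted p = 0.0285) and -0.33 in HMGN1-OE cells (adjusted p = 0.587). The wild-type call held in 15 of 20 fits on this scale, and the value was -0.67 without the second wild-type library at 0 h (adjusted p = 0.326) and -0.57 without the second at 96 h (adjusted p = 0.343). Its centred change was 0.62 (adjusted p = 0.0585) and 0.99 (adjusted p = 0.00905). Of its exon bases in GENCODE vM21, 19.3% overlap Psmc3ip on the opposite strand, and the library kit does not mark strand, so its reads cannot be told from those of Psmc3ip there. Such overlaps covered 4.43% of Mxd3, 6.06% of Mxd4 and 2.84% of Mxi1.

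Over the whole list, 9 of the 10 genes passed the test from 0 to 96 h in wild-type cells as deposited, 2 higher and 7 lower, where 81.5% of all tested genes passed, 4.31% higher and 77.2% lower. In HMGN1-OE cells 8 passed, 2 higher and 6 lower, against 67.5% of all genes, 5.08% higher and 62.4% lower. The wild-type count was 4 with only the groups compared in the fit (52.8% of all genes), and the HMGN1-OE count was 5 without the first HMGN1-OE library at 0 h and 4 without the first at 96 h (33.6% and 33.7%). With centred libraries 9 passed in wild-type cells, 5 higher and 4 lower (70.3% of all genes, 36.5% higher and 33.8% lower), and 8 passed in HMGN1-OE cells, 4 higher and 4 lower (63.4% of all genes, 30.9% higher and 32.5% lower). The total shares of the list are near those of all genes. Myc, Mycn and Mxd1 passed in the same direction in all 20 fits on the deposited scale and all 16 on the centred or quantile scale, in both genotypes.

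**Figure D2:**
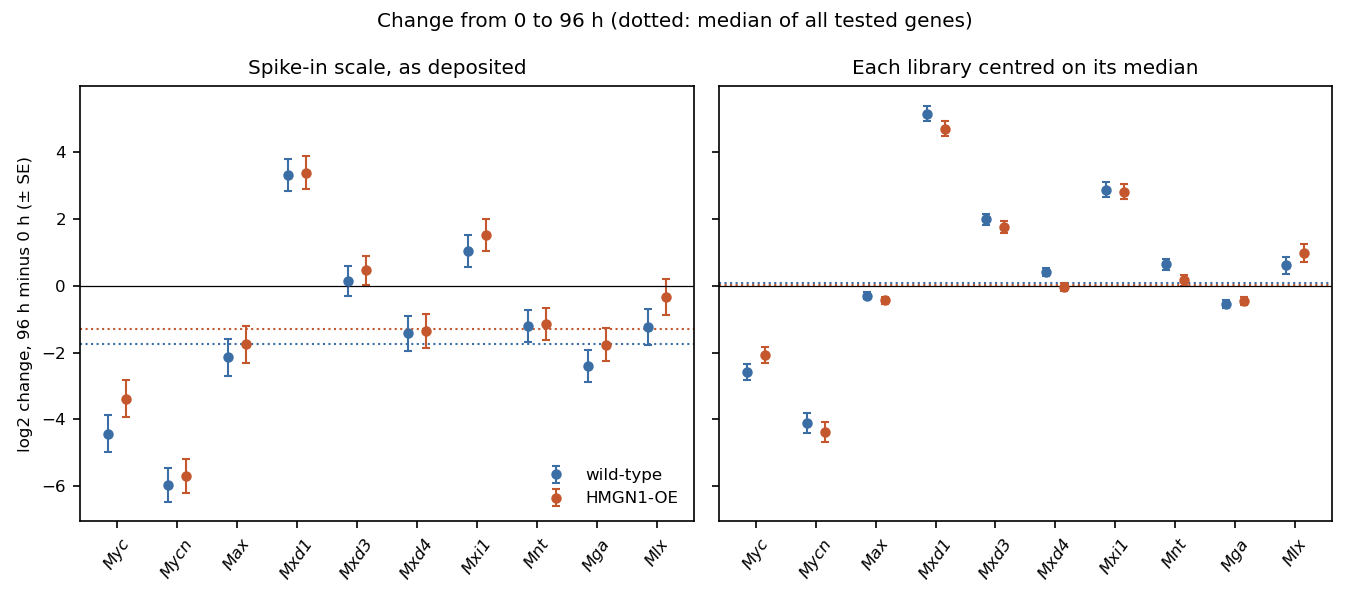
Log2 change from 0 to 96 h (± SE from limma) of the 10 network genes, as deposited (left) and after centring every library on its median (right), in wild-type (blue) and HMGN1-OE (orange) cells, with dotted lines at the median of all tested genes. Mxd1 and Mxi1 lie above 0 and Myc, Mycn, Max and Mga below 0 on both scales, whereas Mnt and Mlx change sign.

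The exchange took place between 36 and 96 h. From 0 to 36 h none of the 10 genes passed in either genotype on either scale. On the deposited scale 0.617% of all genes passed in wild-type cells and 1.8% in HMGN1-OE cells, and with centred libraries 0.00868% and 0.13%. At an unadjusted p under 0.05 the counts were 0 and 0 as deposited and 1 and 4 centred, against 3.28% and 5.02% of all genes as deposited and 3.06% and 14.8% centred. The deposited changes over this interval ran from -0.03 to 0.93 in wild-type and from -0.47 to 0.93 in HMGN1-OE cells. The highest in both was Mlx (0.93 in each, 95% interval -0.12 to 1.99). For Myc the interval was -0.61 to 1.60 in wild-type cells and -1.01 to 1.19 in HMGN1-OE cells. For Mxd1 it was -0.44 to 1.46 and -0.96 to 0.94 in the same order. These intervals show which early changes were not detectable here. From 36 to 96 h, 8 genes passed in wild-type cells as deposited, with Mxd1 higher and 7 lower (89.5% of all genes, 3.15% higher and 86.3% lower), and 6 in HMGN1-OE cells, with Mxd1 higher and 5 lower (69.0% of all genes, 4.02% higher and 64.9% lower). Centred, the counts were 9 and 8 (71.9% and 61.0% of all genes). Over this interval Myc fell by 4.92 in wild-type cells and fell by 3.46 in HMGN1-OE cells as deposited (SE 0.56, adjusted p = 1.03e-16 and 2e-08), and Mxd1 rose by 2.80 and 3.40 (SE 0.48, adjusted p = 2.53e-08 and 9.05e-11).

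A ratio of FPKM values in the same library does not move with a factor common to that library, such as its median. It does move with steps that act by level, such as quantile normalization or the loess fit to the spike-ins behind the deposited values. Ratios are given as descriptions without a test. Myc FPKM over Mxd1 FPKM was 40.6 to 53.3 in the 4 libraries at 0 h and 31.8 to 54.2 at 36 h, and 0.0965 to 0.459 at 96 h. Mxd1 thus exceeded Myc by 2.18 to 10.4 times in every mature library. Among 8 Max partners (all the genes but Max and Mlx), Myc and Mycn together made up 75.9 to 80.3% of the summed FPKM at 0 h and 75.1 to 79.4% at 36 h. At 96 h they made up 11.8 and 5.85% in wild-type and 11.3 and 18.8% in HMGN1-OE libraries. The 4 genes Mxd1, Mxd3, Mxd4 and Mxi1 went from 12.3 to 14.9% at 0 h to 73.3 to 87.9% at 96 h, and Mxd1 alone from 1.11 to 1.37% up to 40.3 to 57.7%.

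The summed partners outnumbered Max at all times. Their sum was 3.49 to 4.58 times the Max FPKM at 0 h, 3.79 to 4.21 times at 36 h and 4.41 to 5.36 times at 96 h. Within each genotype both values at 96 h lay above both at 0 h, with 3.49 and 4.58 against 5.01 and 5.36 in wild-type libraries and 3.85 and 3.91 against 5.14 and 4.41 in HMGN1-OE libraries. Max was higher against Myc alone at 96 h, moving from 0.393 to 0.511 times the Myc FPKM at 0 h to 1.23 to 3.35 times at 96 h. These are transcript levels per length, and protein was not measured here.

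**Figure D3:**
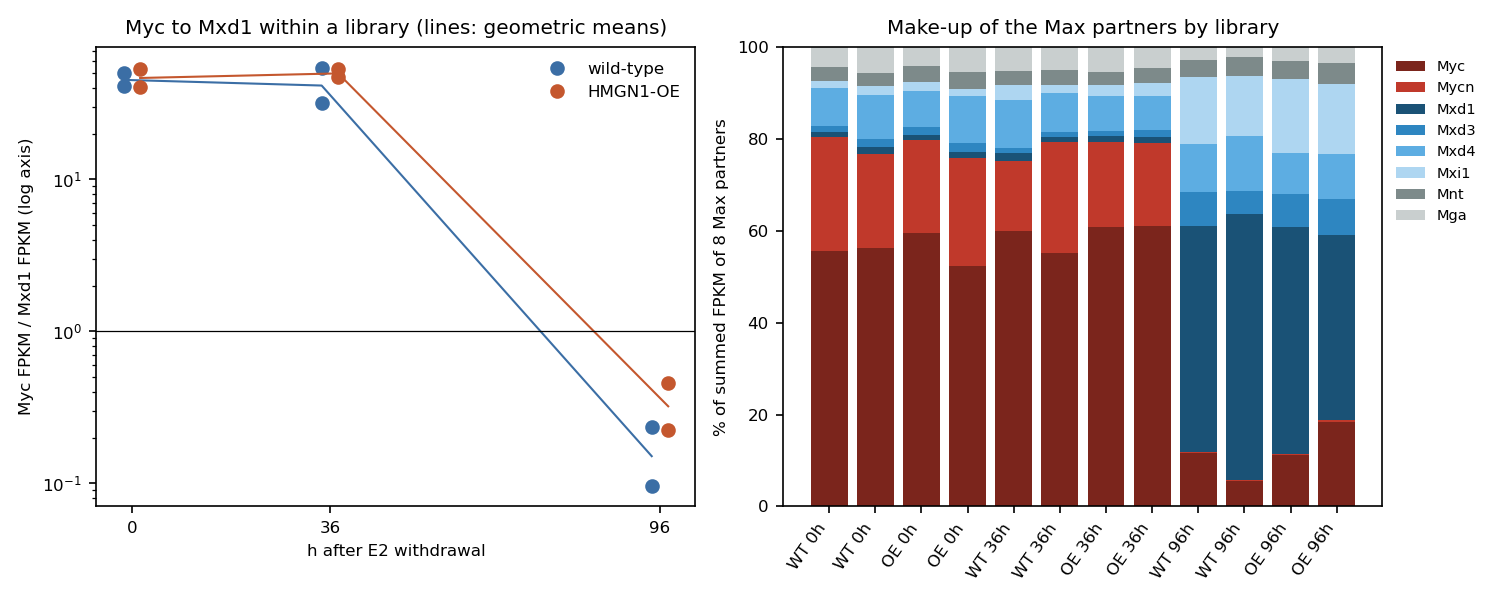
Left, Myc FPKM over Mxd1 FPKM within each library (log axis) against hours after E2 withdrawal, with lines through geometric means. Right, the share of each of 8 Max partners in their summed FPKM, 1 bar per library. The ratio passes from 31.8 or more at 0 and 36 h to 0.459 or less at 96 h, and Myc with Mycn (reds) gives way to Mxd1 and its family (blues).

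The order of levels turned over by 96 h. In wild-type cells at 0 h the group means ran Myc, Max, Mycn, Mlx, Mxd4, Mga, Mnt, Mxi1, Mxd3, Mxd1, and Myc stood apart from Max, as Mycn did from Mlx, while every other pair of neighbours overlapped. At 96 h the wild-type order was Mxd1, Max, Mlx, Mxi1, Mxd4, Myc, Mxd3, Mnt, Mga, Mycn, and only Mxd1 at the top and Mycn at the bottom stood apart from their neighbour. In HMGN1-OE cells Myc moved from the 92.1 and 93.7 percentiles of tested genes at 0 h to 69.1 and 75.3 at 96 h, and Mxd1 from 18.4 and 18.8 to 88.4 and 93.3.

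By genotype, no network gene passed the test between HMGN1-OE and wild-type cells at any time on either scale (limma, 0 of 10 at each of 3 times, with 1.36%, 1.26% and 0.669% of all genes passing at 0, 36, and 96 h as deposited and 0.104%, 0.0521% and 0.0608% centred). At an unadjusted p under 0.05 the counts were 0, 0 and 0 as deposited and 0, 1 and 1 centred, against 3.97%, 5.15% and 2.73% of all genes as deposited and 5.64%, 3.85% and 17.9% centred. At 0 h the deposited differences lay between -0.27 and 0.11, and all 10 genes overlapped between genotypes. At 36 h all 10 were lower in HMGN1-OE cells, by 0.27 to 0.99, and 8 had both libraries below both wild-type libraries. The same held for 84.4% of all genes, whose median difference was -0.54, and with centred libraries 1 of the 10 did so (9.49% of all genes), Mxd4 at -0.41 (95% interval -0.68 to -0.14, adjusted p = 0.912).

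At 96 h Myc was 0.86 higher in HMGN1-OE cells as deposited (95% interval -0.25 to 1.96, adjusted p = 0.859) and 0.45 higher centred (-0.09 to 0.99, adjusted p = 0.347). The wild-type library with the lowest summed FPKM also had the lowest Myc, 3.90 FPKM, and without it the deposited difference was -0.01. Mxd1 differed by -0.12 as deposited (-1.06 to 0.83, adjusted p = 0.936) and -0.52 centred (-1.05 to 0.01, adjusted p = 0.284), and Mxd4 by -0.13 as deposited and -0.53 centred (-0.80 to -0.26, adjusted p = 0.218). Centred values of the HMGN1-OE libraries did not overlap the wild-type ones and were lower for 3 of the 10, Mxd1, Mxd4 and Max (22.6% of all genes). The test of a different change from 0 to 96 h between genotypes was passed by 0 of 10 (0.677% of all genes as deposited and 0.0347% centred, with 0 and 1 at an unadjusted p under 0.05, against 2.90% and 10.6% of all genes). For Myc the interaction was 1.05 as deposited (-0.51 to 2.61, adjusted p = 0.81) and 0.52 centred (-0.25 to 1.28, adjusted p = 0.552). Differences within these intervals were not detectable with 2 libraries a group, and an exact permutation test of 2 against 2 cannot go below p = 0.333.

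The genes closest to Myc over the 12 libraries, by Pearson's r of centred log2 values, were Ruvbl1, Pabpc4, Phb2, Ahcy and Ncl (r from 0.996 to 0.997). Ruvbl1 is an ATPase of chromatin remodelling and Myc coactivator complexes and Ncl is the nucleolar protein nucleolin. Ruvbl1 was at 96.9 to 172 FPKM at 0 h and 2.60 to 13.0 FPKM at 96 h. The closest to Mxd1 were Lasp1, Lcn2, Lsp1, Arrdc1 and Rasgrp4 (r from 0.997 to 0.999). Lcn2, a granule protein of neutrophils, was at 32.0 to 59.1 FPKM at 0 h and 1478 to 2768 FPKM at 96 h. Likeness on the centred scale does not fix the direction per cell, and Arrdc1 went from 20.5 to 40.8 FPKM at 0 h to 11.7 to 23.5 FPKM at 96 h. Myc against Mxd1 had r of -0.988. The 12 points fall mostly into 2 clusters, the early and the 96 h libraries, so these values describe which genes share that step.

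Genes often cited as activated by Myc fell with it. Of 24 tested, 23 were lower and 1 higher at 96 h than at 0 h in wild-type cells on the centred scale (median -2.22, all genes 0.09, with 33.8% of all genes lower and 36.5% higher). In HMGN1-OE cells 22 were lower, 1 was higher and 1 did not pass (median -1.66, all genes 0.03, with 32.5% lower and 30.9% higher). As deposited 24 and 23 were lower and none higher (medians -4.07 and -2.97), where 77.2% and 62.4% of all genes were lower. The largest centred falls in wild-type cells were in Hspd1, a mitochondrial chaperonin (-3.39, SE 0.25, adjusted p = 6.99e-06), and Npm1, the nucleolar protein nucleophosmin (-3.25, SE 0.32, adjusted p = 2.67e-05). The exception was Cdc25a, a cell-cycle phosphatase, at 23.2 and 45.6 FPKM at 0 h and 24.3 and 6.81 FPKM at 96 h in wild-type cells. It was 0.59 higher on the centred scale (adjusted p = 0.0268) and 1.26 lower as deposited (adjusted p = 0.0221).

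Of 6 genes often cited as repressed by Myc, 5 were higher and none lower in each genotype on the centred scale (medians 1.81 and 1.49), where 36.5% and 30.9% of all genes were higher. As deposited none was higher and 1 was lower, against 77.2% and 62.4% of all genes lower. Cdkn1a, which encodes the cell-cycle inhibitor p21, was at 8.83 and 17.3 FPKM at 0 h and 22.2 and 12.1 FPKM at 96 h in wild-type cells. Its change was 2.23 centred (SE 0.37, adjusted p = 0.000571) and 0.38 as deposited (adjusted p = 0.482). Cdkn2b, the inhibitor p15, had the next largest centred rise (2.20, SE 0.54, adjusted p = 0.00572) at a level of 0.202 to 1.10 FPKM in these libraries. The rise of these genes was thus one relative to the falling median.

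**Figure D4:**
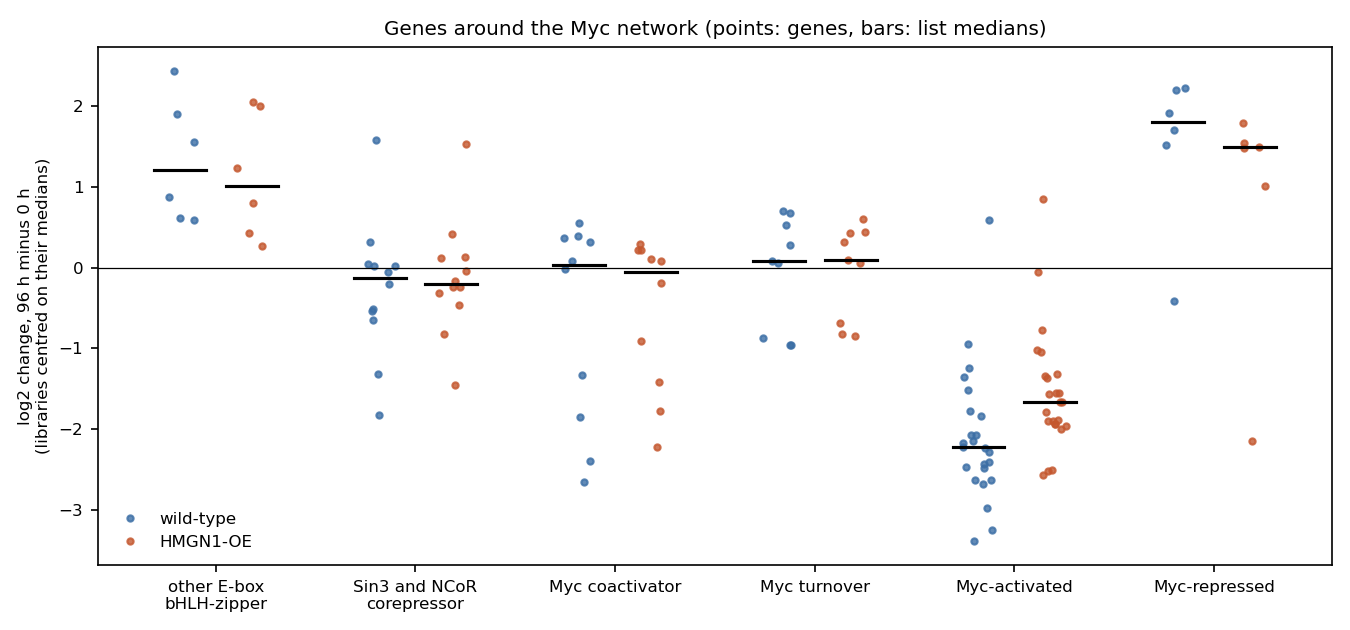
Log2 change from 0 to 96 h with libraries centred on their medians, 1 point per tested gene of 6 lists around the network, in wild-type (blue) and HMGN1-OE (orange) cells, with black bars at list medians. The Myc-activated genes lie below 0 apart from Cdc25a, and the corepressor, coactivator and turnover lists lie on both sides of 0.

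The cofactor lists held genes that rose and genes that fell on the centred scale, at shares to be read against 36.5% higher and 33.8% lower among all genes in wild-type cells and 30.9% and 32.5% in HMGN1-OE cells. Among 10 coactivator genes 4 were higher and 4 lower in wild-type cells and 1 and 4 in HMGN1-OE cells, all centred. Ruvbl1 (-2.65, adjusted p = 6.97e-06) and its partner Ruvbl2 (-2.39, adjusted p = 1.35e-05) fell most, and the acetyltransferase Kat5 was among those that rose (0.39, adjusted p = 0.00719). As deposited all 10 were lower in wild-type cells and 8 in HMGN1-OE cells (77.2% and 62.4% of all genes). Among 12 genes of the Sin3 and NCoR corepressors, through which Mxd proteins act, 2 were higher and 5 lower in wild-type and 2 and 4 in HMGN1-OE cells, centred. Sap18 rose by 0.32 (adjusted p = 0.0293). Rbbp7 fell by 1.82 (SE 0.19, adjusted p = 4.23e-05) and the deacetylase Hdac2 by 1.32 (SE 0.19, adjusted p = 0.000278). On the deposited scale none of the 12 was higher and 11 and 10 were lower (77.2% and 62.4% of all genes).

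Of 9 genes for Myc turnover, 3 were higher and 3 lower in each genotype, centred, near the shares of all genes (36.5% and 33.8% in wild-type cells, 30.9% and 32.5% with HMGN1-OE). Gsk3b, the kinase that marks Myc for decay, rose by 0.71 (SE 0.09, adjusted p = 0.000122) and the ubiquitin ligase subunit Fbxw7 by 0.68 (SE 0.15, adjusted p = 0.00272), whereas the ligases Huwe1 (-0.96, adjusted p = 3.42e-05) and Skp2 (-0.95, adjusted p = 5.01e-05) fell. As deposited 9 and 6 were lower and none higher (77.2% and 62.4% of all genes lower). Of 8 other bHLH-zipper factors that bind E-boxes, 6 were tested, and 6 rose in wild-type cells and 5 in HMGN1-OE cells when centred (36.5% and 30.9% of all genes), against 0 and 0 as deposited, where 2 and 0 were lower. Tfeb, a regulator of lysosome genes, had the largest centred change (2.44, SE 0.15, adjusted p = 4.82e-06), in wild-type cells, and Mitf the next (1.90, SE 0.34, adjusted p = 0.000965).

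By genotype, no gene of the 24 Myc-activated ones differed at 96 h after adjustment, but all 24 had a higher mean in HMGN1-OE cells. The differences were 0.64 to 1.58 as deposited (all genes 0.36 in the median) and 0.23 to 1.18 centred (median 0.60, all genes -0.05), and 8 and 21 had an unadjusted p under 0.05, against 2.73% and 17.9% of all genes. The share of all genes with a higher HMGN1-OE mean at 96 h is not given here. Nor are values of the 24 without the second wild-type library at 96 h, the one with the lowest summed FPKM. Without that library Myc differed by -0.01 as deposited. At 0 h the centred differences of the 24 genes were -0.12 to 0.26. Immature progenitor markers differed beside them at 96 h, with 3 of 8 higher in HMGN1-OE cells as deposited (median 1.55) and 0 of 8 centred (median 1.15), and 2 of 3 tested eosinophil markers were lower as deposited (median -2.14). Of all genes, 0.669% passed by genotype at this time as deposited and 0.0608% centred. The part of these markers in the difference was not tested. The one call by genotype in the 6 lists around the network was Cdkn2c, an inhibitor of Cdk4 and Cdk6 in the Myc-repressed list, at 0 h. It was at 86.4 and 15.0 FPKM in the wild-type and 141 and 163 FPKM in the HMGN1-OE libraries, 2.03 higher as deposited (SE 0.53, adjusted p = 0.0118). It did not pass centred (2.16, SE 1.42, adjusted p = 0.999), and the spread of the wild-type pair was wider than that of the HMGN1-OE pair. Cdkn2c lies outside the rule for named genes and was picked with its values in view.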

How the data were processed

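Poly(A) RNA of 12 cultures was sequenced with an unstranded TruSeq kit. Per the study's methods the authors aligned reads with Bowtie, computed RPKM and normalized by loess on the ERCC RNAs, whereas the submitters' processing notes name HISAT, Cufflinks 2.0.0 and mm9. The deposited values are FPKM, 1 per gene and library. No coordinates come from the files, and promoters and exon overlaps are of GRCm38. Depth is unknown, so no counting error is given. At most 23.2 to 25.8% of low values lay within 0.1 of whole-read steps, with the best step chosen per library. A step fixed in advance would give 20% by chance, and the level for a chosen step lies higher. Exon lengths of GENCODE vM21 were used, which may differ from those behind the deposited values, so the check could miss such steps. All 12 columns of values were used.

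Differences were tested on log2(FPKM + 1) of genes that reached 1 FPKM in 2 libraries or more, with limma 3.58.1 (R 4.3.3, group means, trend), two-sided, and Benjamini-Hochberg adjustment over 11516 genes. A gene passed at an adjusted p under 0.05. On the deposited scale limma took each variance from the trend over expression. The deposited columns give genotype and time, which set the groups. The labels name the samples of a group as separate replicates and the study calls them biological duplicates. Deposited-scale p-values rest on the spread between libraries pooled over genes of like level, taken as known (infinite prior degrees of freedom). They do not measure a gene's own spread, and very small ones are to be read so. On the centred scale the prior had 2.87 degrees of freedom, so a gene's own spread counted too. Within the 6 groups no gene had identical values in both libraries (r 0.951 to 0.980). The script was tested on simulated data.

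The network genes and lists were chosen with earlier results of these data known. The text names the 10 network genes, from each list the 2 that rose most and the 2 that fell most on the centred scale in wild-type cells among those that passed, and the 5 genes nearest to Myc and to Mxd1. Some genes that this rule names are not reported here. Alternatives were a pseudocount of 0.1, other filters, centring, quantile normalization, only the groups compared, limma without the trend, no moderation, and each library left out. limma's robust option and the centred scale with a pseudocount of 0.1, with no moderation or with a library left out were added after the values were seen. Figures were drawn with matplotlib 3.10.9 (Python 3.11.15).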

Additional observations from a re-analysis of the deposited data

Results flagged for a closer look

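Mnt differed in direction between genotypes from 0 to 36 h. It was at 8.18 and 12.1 FPKM at 0 h and 12.1 and 17.4 FPKM at 36 h in wild-type cells, a change of 0.50 on the deposited log2 scale. In HMGN1-OE cells it was at 13.6 and 8.69 FPKM at 0 h and 8.11 and 8.62 FPKM at 36 h, a change of -0.34. Both wild-type libraries at 36 h lay above those at 0 h and both HMGN1-OE libraries lay below, neither change passed the test (limma, adjusted p = 0.589 or more), and the difference between them was not tested. With centred libraries the changes were 0.03 and -0.37.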

How the results depend on the processing

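No paired analysis was possible because the columns carry digits that do not match the replicate numbers in the sample titles. Each group had 2 libraries and depth is unknown. On the deposited scale the variance came from the trend over expression, so a change within a gene's own spread of 2 values could pass. With only the groups compared in the fit, 4 network genes passed from 0 to 96 h in wild-type cells (52.8% of all genes in that fit) and 10 from 36 to 96 h in HMGN1-OE cells (89.0% of all genes), and the cause was not tested. Leaving out 1 library at a time gave 4 to 8 genes passing from 0 to 96 h in HMGN1-OE cells, with 5 without the first library at 0 h and 4 without the first at 96 h, where 33.6% and 33.7% of all genes passed (33.6 to 73.4% over these fits). It gave 6 to 9 from 0 to 96 h in wild-type cells (63.4 to 86.6% of all genes) and 4 to 9 from 36 to 96 h in HMGN1-OE cells (33.7 to 74.5%), against 9 and 6 with all libraries.

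Scale turned the sign of the change to 96 h for 3 genes. In wild-type cells from 0 to 96 h, Mxd4 became 0.42 centred and 0.55 after quantile normalization, Mnt 0.64 and 0.59, and Mlx 0.62 and 0.76. In HMGN1-OE cells Mnt became 0.17 and 0.14, Mlx 0.99 and 1.07, and Mxd4 0.011 after quantile normalization. The genotype difference of Mycn at 96 h became -0.38 and -0.16, and centring also turned those of Max, Mxd3, Mxi1, Mnt and Mga at 96 h and of Mxd3, Mxi1 and Mlx at 36 h, none of which had passed. Leaving out 1 library at a time turned the sign of values that had not passed. The change to 96 h ranged from -0.47 to 0.76 for Mxd3 in wild-type and from -0.72 to 0.068 for Mlx in HMGN1-OE cells. The genotype difference at 0 h ranged from -0.64 to 0.25 for Myc, -0.59 to 0.19 for Mxd1 and -0.63 to 0.25 for Mxd4. At 96 h it ranged from -0.0068 to 1.72 for Myc, -0.058 to 0.093 for Mycn, -0.45 to 0.21 for Mxd1 and -0.46 to 0.20 for Mxd4. Deposited-scale calls from 0 to 96 h of Mxd4, Mxi1, Mnt and, in wild-type cells, Mlx were lost without 1 library or another, as was that of Max in HMGN1-OE cells (adjusted p up to 0.103), whereas those of Myc, Mycn, Mxd1 and Mga were kept in all 20 fits of each genotype.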
